A study of Halocynthia roretzi with 24 samples.

Results

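The change in transcript levels of the animal hemisphere between the 110-cell and the 8-cell stage was followed in *Halocynthia roretzi*, an ascidian, a marine chordate whose embryo cleaves in a fixed pattern. It rests on 8 RNA sequencing libraries, 4 of animal hemispheres at 110 cells and 4 of animal hemispheres at 8 cells, which carry the numbers 2 to 5 at both stages and were compared within numbers. The expression table lists 16078 gene models, of which 11268 (70.1%) had at least 1 RPKM, reads per kilobase of gene model and per M (mega) reads, in 4 or more of these 8 libraries. They are the models described here. The other 4810 stayed below that limit, and 1284 of them were at 0 in all 8 libraries. At the edge of the rule, 463 models reached 1 RPKM in exactly 4 libraries and had a median of 1.87 RPKM, and 368 models left out reached it in exactly 3 and had a median of 0.965 RPKM.

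All embryos were wild type and of the southwestern Japanese population, from animals kept in culture at an inland laboratory for generations. The groups were animal hemispheres at 110 and at 8 cells, vegetal hemispheres at 110 and at 8 cells, and whole embryos at 110 and at 8 cells, with 4 libraries each and 24 in all. How and when hemispheres were parted, how many embryos a library holds and what a number stands for are not in the labels. The spread behind each p-value is therefore that between these libraries, which may be technical. An RPKM value is a share of a library, so fewer cells that express a gene and less of its RNA per cell cannot be told apart, and a change in total RNA per embryo is not seen.

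An ascidian egg holds a store of maternal transcripts, which drives the first cleavages, and the embryo then begins transcription of its own genes while part of the maternal store decays. The animal hemisphere gives rise mainly to the epidermis and to part of the nervous system, and the vegetal hemisphere to endoderm, notochord, muscle and mesenchyme. The 110-cell stage stands near the onset of gastrulation, when most cells of an ascidian embryo are already restricted in fate. The annotation pairs models with a best match whose identifier starts with KH, with a protein record or with no match, and names 1 gene, ND5. None of the markers listed for epidermis, nerve or the vegetal tissues is named in these notes, so the hemisphere labels were not checked against markers. Models are given below by identifier without its common beginning, Harore.CG.MTP2014, with the positions and strand of the deposited annotation.

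The depth of the animal libraries, inferred from the steps between low RPKM values, was 3.51 to 9.29 M reads in genes. In the 110-cell library of number 3 the low values came mostly in steps of 2 such units, with 46 values at the smaller step and 365 at the larger, against 0 to 4 values at the smaller step in the other animal libraries. Its depth of 3.51 M, the lowest, is given at the larger step. Across models, libraries of the same stage had Spearman correlations of 0.933 to 0.951 at 110 cells and 0.934 to 0.964 at 8 cells. Libraries of different stages correlated at 0.867 to 0.931 with the same number and at 0.854 to 0.917 with another number.

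Between the stages, 748 models were higher at 110 cells than at 8 cells in animal hemispheres (6.64% of those tested) and 767 were lower (6.81%), while the remaining 9753 were not called. The test was limma on log2(RPKM + 1) with the number as a block and Benjamini-Hochberg adjustment over all 11268 models, and models with an adjusted p under 0.05 were called. The directions were nearly equal in number but unequal in size. Higher models changed by a median of 1.86 on the log2(RPKM + 1) scale (0.41 to 7.25), lower models by a median of -0.87 (-2.39 to -0.39). A change of at least 2 on that scale was reached by 349 higher and 6 lower models, and a change of at least 4 by 101 higher models and by 0 lower models. The direction was the same in all 4 numbers for 747 of the 748 and for 763 of the 767. Over all 11268 models, 2062 rose in all 4 numbers and 2072 fell in all 4. The calls rest on these same numbers, so such counts are no separate support. All 4 libraries at 110 cells lay above all 4 at 8 cells in 647 of the higher models, where 8.56% of all models did so, and below them in 570 of the lower models, where 7.8% did. Without the number as a block 608 models were higher and 499 lower. Leaving out number 2 left 485 higher and 330 lower models, leaving out number 3 left 512 and 357, and leaving out number 5 left 549 and 419.

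**Figure D1:**
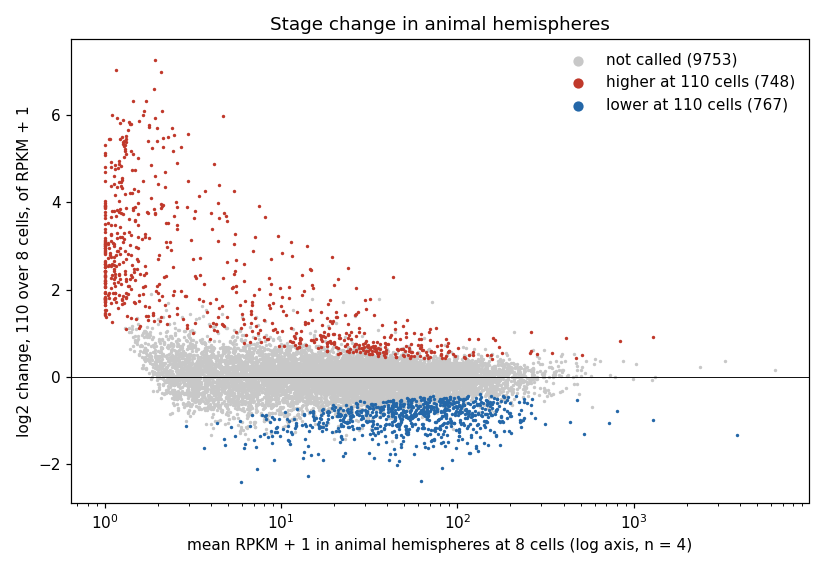
Log2 change of RPKM + 1, 110 over 8 cells, against the mean RPKM + 1 at 8 cells (log axis, n = 4) for the 11268 models in animal hemispheres. The 748 models higher at 110 cells (red) reach log2 7.25 and lie mostly at low 8-cell levels, while the 767 lower models (blue) reach -2.39 and lie mostly at high levels.

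Most of the large rises were in transcripts scarce at 8 cells, and most falls in more abundant ones. Of the 349 rises of at least 2 on the log2 scale, 252 were in models under 1 RPKM at 8 cells, 69 in models at 1 to 5 RPKM, 28 at 5 to 50 RPKM and 0 at 50 RPKM or more. Of 441 models with a mean under 1 RPKM at 8 cells, 318 were higher at 110 cells (72.1%) and 0 lower. Among 3184 models at 50 RPKM or more at 8 cells, 78 were higher (2.45%) and 431 lower (13.5%). Between these lay 1694 models at 1 to 5 RPKM, with 6.55% higher and 0.531% lower, and 5949 models at 5 to 50 RPKM, with 4.05% higher and 5.50% lower. The classes rest on the 8-cell mean, which is also the baseline of the change, so part of this pattern is built in. Models under 1 RPKM at 8 cells could fall only a little on the log2(RPKM + 1) scale. Their share is also set in part by the rule, since 245 of the 441 models passed only through their 110-cell libraries and therefore had to differ. Of these 245, 239 were called higher, and 4 models passed only through the 8-cell libraries, of which 2 were called lower. The other 11019 models gave 509 higher and 765 lower calls. With at least 1 RPKM asked of 2 libraries at each stage, 391 models were higher and 675 lower.

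As shares of a library, the higher models together took 7.53 ± 0.949% of the reads in genes at 110 cells and 3.44 ± 0.216% at 8 cells (SD, n = 4 each). The lower models took 6.34 ± 0.730% at 110 cells and 11.6 ± 0.238% at 8 cells. The lowest 110-cell share of the higher models, 6.42%, and the highest of the lower models, 7.33%, were both in number 4. These shares describe the models called and are no test. Falls in share were partial: at 110 cells the lower models stood at a median of 54.0% of their 8-cell mean RPKM. Of the 767, 708 still stood at 5 RPKM or more at 110 cells. Of 9133 models at 5 RPKM or more at 8 cells, 1 was under 1 RPKM at 110 cells. In the other direction, 81 models were listed at 0 in all 4 of the 8-cell libraries, and all 81 were called higher. These are among the 245 models that passed through the 110-cell libraries only, so the rule fixed their direction. It did not fix the call itself, which 239 of the 245 received.

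The steepest rise in animal hemispheres was that of S172.g02982 (scaffold S172, 170746 to 175238, minus strand, 7 exons, best match KH.C11.648). It stood at 379, 214, 194 and 412 RPKM in numbers 2, 3, 4 and 5 at 110 cells, against 0.676, 1.24, 1.43 and 0.332 RPKM at 8 cells. The stages were far apart in every number, and numbers 2 and 5 were the highest at 110 cells and the lowest at 8 cells. Models named for their stage change had to show no overlap of the stages, so that trait is no added support. Its means were 299.5 ± 112 and 0.919 ± 0.506 RPKM (SD, n = 4), a 326-fold difference (log2 7.25 ± 0.33 SE, limma adjusted p = 1.81e-05). In vegetal hemispheres it rose too, with 85.3 ± 36.0 RPKM at 110 cells against 0.168 ± 0.119 RPKM at 8 cells (SD, n = 4). The difference of the stage changes was not called (limma adjusted p = 0.324). Another model shares its best match, so reads of near-identical copies could be split between them.

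S55.g11366 (218178 to 219259, plus strand, 2 exons, KH.C2.1036, a match that another model shares) stood at 262, 82.3, 77.4 and 271 RPKM at 110 cells. At 8 cells it was listed at 0 in numbers 2, 4 and 5 and at 0.647 RPKM in number 3. In vegetal hemispheres it rose too, to 40.1 ± 26.6 RPKM at 110 cells from 0 at 8 cells (SD, n = 4). The difference of the stage changes was not called (limma adjusted p = 0.152). Numbers 2 and 5 were again the highest in animal hemispheres at 110 cells, and no animal library of 1 stage reached into the other (log2 7.02 ± 0.42 SE, limma adjusted p = 4.44e-05). S299.g00917 (76353 to 77940, minus strand, 7 exons, KH.S1269.2) followed the same order, with 259, 187, 169 and 343 RPKM at 110 cells, against 0.238, 1.74, 2.31 and 0 RPKM at 8 cells. Its means of 239 ± 79.1 and 1.07 ± 1.13 RPKM (SD, n = 4) differed 223-fold (log2 6.98 ± 0.43 SE, limma adjusted p = 5.06e-05).

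S201.g08639 (127747 to 129546, minus strand, 4 exons) had 259, 110.0, 122 and 279.7 RPKM at 110 cells, against 1.49, 0.726, 1.08 and 0.292 RPKM at 8 cells (log2 6.59 ± 0.31 SE, limma adjusted p = 1.91e-05). Its best match, KH.C4.71, is shared by 11 models, and whether these take up each other's reads was not tested, so its level is uncertain. In these 4 models alike, numbers 2 and 5 gave the highest 110-cell values and numbers 3 and 4 the lowest.

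The largest rises among models at 50 RPKM or more at 8 cells were smaller. S37.g04461 (47017 to 48272, plus strand, 5 exons, KH.C4.410) stood at 136, 146, 71.3 and 169.8 RPKM at 110 cells, against 44.4, 50.2, 59.6 and 48.0 RPKM at 8 cells. The stages did not overlap, but number 4 had both the lowest 110-cell and the highest 8-cell value. The rise was 2.59-fold (log2 1.29 ± 0.24 SE, limma adjusted p = 0.0114) and missed the threshold without number 2 or number 3. Vegetal hemispheres showed a rise as well (log2 1.46 ± 0.19 SE, limma adjusted p = 0.00367).

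S355.g00155 (78930 to 85531, plus strand, 12 exons, no match named) rose more evenly. It had 203, 129, 138 and 188 RPKM at 110 cells, against 81.6, 63.8, 67.2 and 85.6 RPKM at 8 cells, with numbers 2 and 5 the higher at both stages. Its 2.20-fold rise had a smaller error (log2 1.11 ± 0.11 SE, limma adjusted p = 0.000608). Over the 319 higher models that had 5 RPKM or more at 8 cells, the median ratio of means was 1.81.

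Among models with at least 5 RPKM on average at 8 cells, S480.g12062 (9248 to 10663, plus strand, 3 exons, no match named) had the most negative log2 change. It stood at 14.2, 8.96, 12.4 and 8.14 RPKM at 110 cells, against 41.6, 57.3, 72.7 and 72.6 RPKM at 8 cells. The stages did not overlap, and number 2 showed the smallest change. It was 5.58 times higher at 8 cells (log2 110 over 8 cells -2.37 ± 0.24 SE, limma adjusted p = 0.000662). S480.g14149 (10488 to 16473, minus strand, 10 exons, KH.C1.755), which overlaps it on the other strand, stood at 34.0, 41.5, 52.9 and 31.5 RPKM at 110 cells, against 94.97, 132, 147 and 148 RPKM at 8 cells (log2 -1.69 ± 0.15 SE, limma adjusted p = 0.000352). The libraries do not keep strand, so reads of the overlap cannot be told apart. Both models were higher in vegetal hemispheres at both stages. There S480.g12062 averaged 130 ± 63.8 RPKM at 110 cells and 422 ± 23.8 RPKM at 8 cells, and S480.g14149 averaged 287 ± 82.2 and 806 ± 138 RPKM (SD, n = 4). Neither model gave a call for a difference between the animal and vegetal stage changes (limma adjusted p = 0.747 and 0.919).

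S401.g08347 (84787 to 86328, plus strand, 1 exon, KH.C9.207, a match shared with another model) had 14.7, 17.4, 23.9 and 16.6 RPKM at 110 cells, against 92.3, 77.9, 54.6 and 97.1 RPKM at 8 cells. Number 4 had the highest 110-cell and the lowest 8-cell value, and the stages did not overlap (log2 -2.08 ± 0.23 SE, limma adjusted p = 0.00114). S276.g04871 (89552 to 93092, plus strand, 8 exons, KH.C1.561) was lower in every number with no overlap of the stages, with 7.77, 14.02, 10.8 and 8.55 RPKM at 110 cells, against 40.7, 49.8, 53.6 and 32.7 RPKM at 8 cells (log2 -2.01 ± 0.16 SE, limma adjusted p = 0.00021).

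Among the models lower at 110 cells, 2 of the steepest rest on few reads. S29.g01910 (378298 to 378498, minus strand, 1 exon of 201 bases, no match named, overlapping a model on the other strand) stood at 4.57, 5.21, 0 and 1.18 RPKM at 110 cells, against 14.4, 13.6, 10.9 and 14.1 RPKM at 8 cells (log2 -2.27 ± 0.40 SE, limma adjusted p = 0.00908). For a model this short, 3 reads amount to 2.02 RPKM in an average 8-cell library. S1548.g05344 (1 to 4231, plus strand, 4 exons, KH.C9.885), which begins at the first base of its scaffold, stood at 2.26, 0, 0 and 1.32 RPKM at 110 cells, against 4.68, 5.07, 7.02 and 8.53 RPKM at 8 cells (log2 -2.11 ± 0.38 SE, limma adjusted p = 0.0101).

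**Figure D2:**
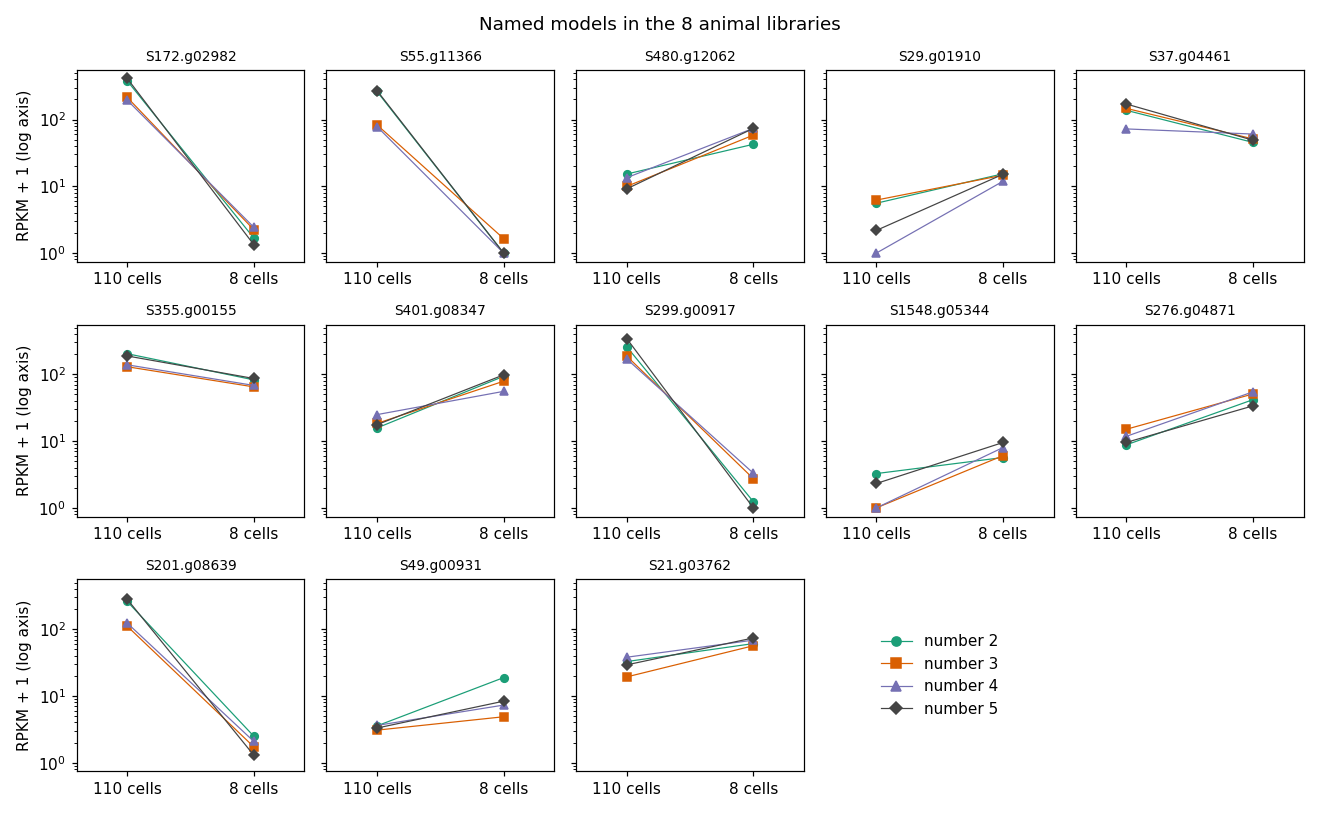
RPKM + 1 (log axis) of 13 models in the 4 animal libraries at 110 cells (left of each panel) and the 4 at 8 cells (right), with a line for each number. Lines cross the range from 412 RPKM at 110 cells to 0.332 RPKM at 8 cells in S172.g02982, and run nearly parallel in S355.g00155, between 129 and 203 RPKM at 110 cells and between 63.8 and 85.6 RPKM at 8 cells.

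The most abundant transcripts of the animal hemisphere were largely the same at both stages, and 4 models stood among the top 5 of each. S4.g03418 (727443 to 730621, minus strand, KH.C4.213) led both, with 7864, 6109, 6642 and 7105 RPKM at 110 cells, against 8498, 4574, 5144 and 7114 RPKM at 8 cells. The stages overlapped, and its change did not pass the test (log2 0.17 ± 0.22 SE, limma adjusted p = 0.657). S20.g07632 (127235 to 128332, minus strand, KH.L116.19, a match shared by 3 models) averaged 4256 ± 981 RPKM at 110 cells and 3316 ± 919 RPKM at 8 cells (SD, n = 4). S106.g10442 (76263 to 78558, minus strand, KH.C13.119, a match shared with another model) averaged 2745 ± 522 and 2385 ± 719 RPKM (SD, n = 4). Neither passed the test (limma adjusted p = 0.278 and 0.536).

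S214.g10945 (75231 to 78817, minus strand, 4 exons, no match named) was the one of the 4 that changed. It fell to 1587, 1565, 1747 and 1231 RPKM at 110 cells, against 3682, 3742, 4712 and 3221 RPKM at 8 cells, with every number lower and no overlap (log2 -1.32 ± 0.16 SE, limma adjusted p = 0.00152). S64.g15844 (294622 to 300649, minus strand, 11 exons) entered the top 5 at 110 cells, with 2502, 2109, 2268 and 2416 RPKM, against 1246, 865, 1085 and 1963 RPKM at 8 cells. Its rise (log2 0.91 ± 0.19 SE, limma adjusted p = 0.0192) missed the threshold without number 2 or number 3 and with no filter on low values. It shares the best match KH.C4.213 with S4.g03418 and overlaps models on the other strand, so both levels are uncertain.

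S36.g05846 (206582 to 207954, plus strand, KH.C10.73), the fifth at 8 cells, averaged 1319.6 ± 195 RPKM at 110 cells and 1324 ± 216 RPKM at 8 cells (SD, n = 4; limma adjusted p = 0.997). Its stages overlapped. ND5, which belongs to complex I of the respiratory chain and is encoded in mitochondrial DNA, is named in the note of S964.g01698 (6139 to 6998, plus strand). It stood at 894, 1572, 726 and 1406 RPKM at 110 cells, against 555, 878, 1111 and 937 RPKM at 8 cells, with overlapping stages and a lower 110-cell value in number 4 alone (log2 0.37 ± 0.24 SE, limma adjusted p = 0.356).

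The structure of the models went with the direction of the calls to a small extent. Of 1380 models with 1 exon, 5.36% were higher and 8.77% lower. Models with 2 to 4 exons had 8.41% higher and 6.37% lower, and models with 5 or more had 6.11% and 6.61%. Among models at 5 to 50 RPKM at 8 cells, where levels are alike, the shares were 3.52% and 6.38% with 1 exon, 4.43% and 5.67% with 2 to 4, and 4.004% and 5.24% with 5 or more. Split by exon length into 3 equal parts, the shortest, middle and longest models were called higher in 7.48%, 7.64% and 4.79% of cases and lower in 6.36%, 7.88% and 6.18%. Without the models that passed through 1 stage only, the shares called higher were 4.51%, 5.38% and 3.98%.

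Models whose best match is shared with another model were higher in 8.64% and lower in 5.61% of 3404 cases, against 5.09% and 7.38% of 4678 models with a match of their own. Those with shared matches had lower 8-cell levels, with a median of 14.5 against 29.1 RPKM, and 129 of them had passed only through the 110-cell libraries, against 56. Models with a protein record in the note were higher in 4.66% and lower in 8.09% of 408 cases, and models with no match named in 7.09% and 7.13% of 2777. These shares are descriptions, and what set them was not tested.

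Called models lay next to each other on the scaffolds. Of 649 higher models whose neighbour in the annotation was among the 11268, 293 (45.2%) adjoined another higher model, while 9.07% of all such models did. Of 705 lower models, 197 (27.9%) adjoined another lower model, against 11.1% of all. Leaving out neighbours that overlap or share a best match, the shares were 35.4% against 8.27% for higher models and 18.2% against 10.3% for lower models. Models of the other direction were next to 6.45% of the higher models, where 10.3% of all models adjoined a lower one. Neighbours may be pieces of 1 transcription unit or take up each other's reads, which was not tested.

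Higher models formed 35 runs of 3 or more neighbours, with 115 models in all. The longest held 5 models on scaffold S223 between 48114 and 115614 and was chosen after its values were seen. S223.g08251 (48114 to 52140, plus strand) stood at 43.1, 72.5, 65.6 and 50.8 RPKM at 110 cells, against 3.99, 3.24, 3.84 and 4.61 RPKM at 8 cells. The next model, S223.g01975 (65274 to 70571, minus strand), stood at 37.0, 22.7, 25.1 and 37.7 RPKM at 110 cells, against 0, 0, 0.419 and 0.170 RPKM at 8 cells. S223.g11293 (74063 to 75320) and S223.g03649 (79474 to 80091), both on the minus strand, were at 6.92 to 15.8 and at 8.95 to 23.02 RPKM at 110 cells and were listed at 0 in all 4 of the 8-cell libraries.

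The run ended with S223.g03969 (95227 to 115614, minus strand, 15 exons), at 31.5, 28.3, 24.9 and 32.0 RPKM at 110 cells, against 0.844, 0.732, 1.57 and 1.24 RPKM at 8 cells. In none of the 5 models did the stages overlap, and the limma adjusted p ranged from 3.21e-05 to 0.000185. The first and the third share the best match KH.C4.492 and the second and the fifth share KH.C4.260, so these models may split reads of near-identical copies. All 5 were also called higher in vegetal hemispheres. There S223.g03969 changed less, with a difference of the stage changes of 2.45 ± 0.34 SE on the log2 scale (limma adjusted p = 0.00162), and the other 4 gave no call for that difference. The longest run of lower models held 4 on scaffold S93 (38938 to 48933). They lie in separate pairs that overlap on opposite strands, so reads of the overlap within a pair cannot be told apart.

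**Figure D3:**
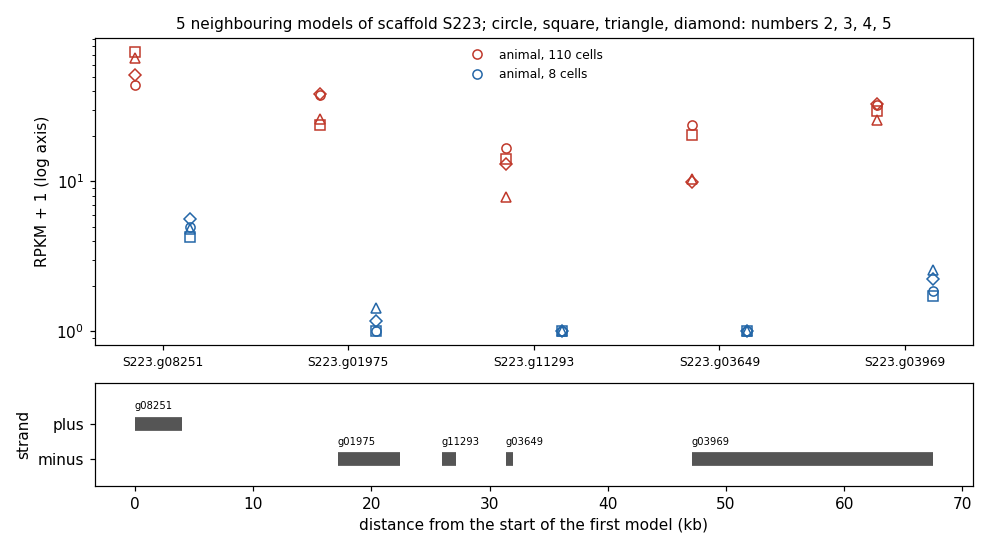
The 5 neighbouring higher models of scaffold S223. The upper panel gives RPKM + 1 (log axis) in the animal libraries at 110 cells (red) and at 8 cells (blue), with a marker for each number, and the lower panel gives the position and strand of each model in kb from the start of the first. Every 110-cell value, 6.92 RPKM or more, lies above every 8-cell value of the same model.

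The pairs differed in how far they had changed. Models called on the other 3 numbers moved in number 4 by 68.6% of the median log2 change of those 3 when higher and by 48.3% when lower. In number 5 they moved by 123% and 116%, in number 2 by 110% and 91.0%, and in number 3 by 90.6% and 86.7%. These models were chosen for their change in the other numbers, and each number has its own list, so a value under 100% needs no difference between pairs. Of the 932 lower models called without number 4, 758 (81.3%) had the same direction in it, where 47.4% of all models did, and the other numbers gave 97.1% to 97.3%.

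Number 4 also gave the smallest changes outside the animal hemisphere for lower models. There its changes were 66.7% in vegetal hemispheres and 69.0% in whole embryos, and for higher models 69.5% and 77.9%. The 110-cell animal library of number 4 correlated with the 8-cell animal libraries at 0.908 to 0.931, where number 2 gave 0.864 to 0.896, number 3 0.872 to 0.917 and number 5 0.854 to 0.874. Without number 4, 799 models were higher and 932 lower at 110 cells. The labels give no exact age of the embryos, and whether a number marks a batch was not tested.

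**Figure D4:**
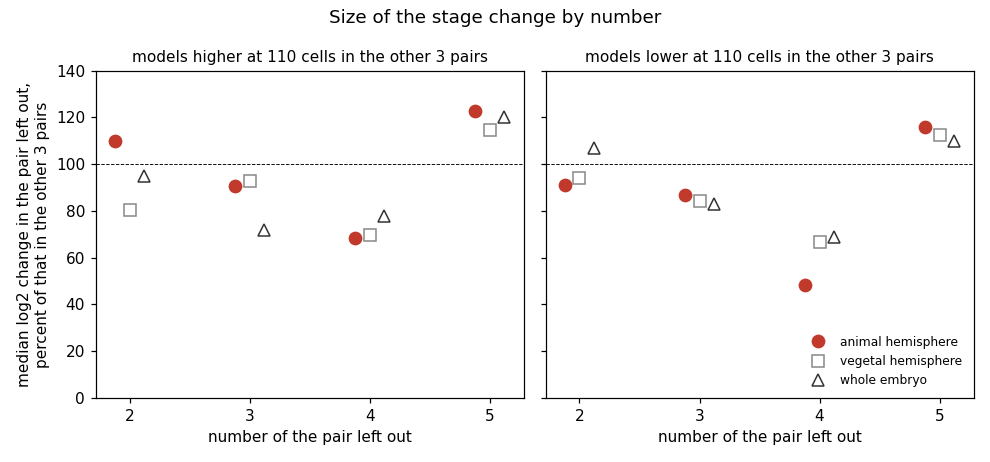
Median log2 stage change in the number left out, as a percentage of the median in the other 3 numbers, for models called higher (left) or lower (right) on those 3. Red circles are animal hemispheres, grey squares vegetal hemispheres and triangles whole embryos, and in number 4 all 6 values lie between 48.3% and 77.9%.

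Where the animal hemisphere departed from the vegetal one was tested as the animal stage change minus the vegetal stage change, on 16 libraries with the number as a block. The difference was positive in 177 models (1.57%) and negative in 102 (0.905%). Of the 177, 168 were called higher at 110 cells in animal hemispheres, with a median log2 change of 3.10 in animal and 0.76 in vegetal hemispheres over the 177. Of the 102, 95 were called higher in vegetal hemispheres, and 84 had no call in animal hemispheres, with medians of 0.04 in animal and 2.32 in vegetal hemispheres. Of the positive models, 90 were in the test only through their 110-cell animal libraries, and vegetal values played no part in the choice of models, so these counts do not weigh the hemispheres evenly. With a pseudocount of 0.1 RPKM 44 models were positive and 61 negative. Leaving out 1 number left 48, 39, 100 and 87 positive models for numbers 2, 3, 4 and 5, and 54, 50, 68 and 46 negative ones.

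Models lower in animal hemispheres seldom differed from the vegetal change. Of the 767 models lower in animal hemispheres, 0 gave a positive and 3 a negative difference, and their median change was -0.87 in animal and -0.91 in vegetal hemispheres. Of the 748 higher models, 168 gave a positive and 15 a negative difference, and their median change was 1.86 in animal and 0.85 in vegetal hemispheres. These models were chosen for their animal change, and whether rises and falls differ in this respect was not tested. In a fit of the vegetal libraries alone, 741 of the same models were higher (6.58%) and 1179 lower (10.5%), and 368 of the higher and 583 of the lower ones had the same call in animal hemispheres.

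**Figure D5:**
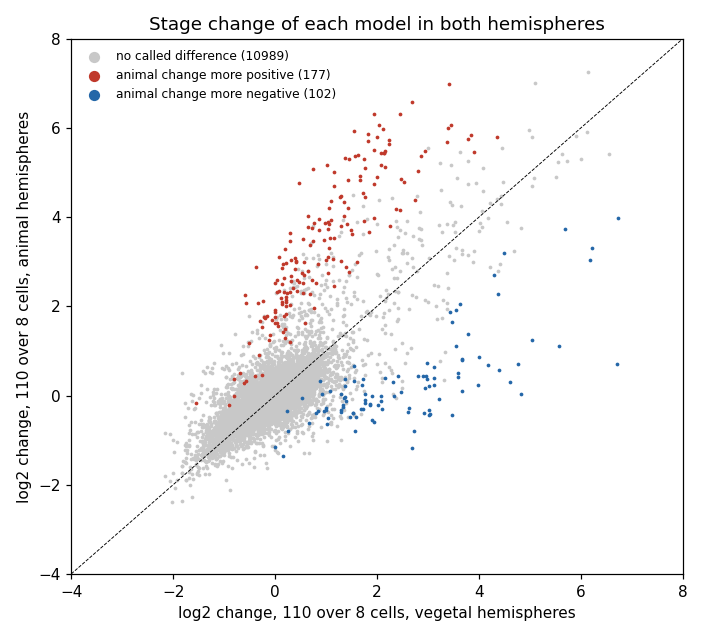
Log2 change of RPKM + 1, 110 over 8 cells, in animal hemispheres (vertical axis) and vegetal hemispheres (horizontal axis) for the 11268 models, with the diagonal of equal change. The 177 models with a more positive animal change (red) lie above it, mostly at positive animal values, and the 102 with a more negative animal change (blue) lie below it, mostly near 0 on the animal axis.

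The largest positive differences were those of S201.g00399 and S146.g12031. Models named for a difference between regions had to show the same sign in all 4 numbers, so that count is no added support. S201.g00399 (129673 to 130643, minus strand, 3 exons, KH.C1.1181, a match shared by 3 models) had 73.0, 58.9, 35.0 and 143 RPKM in animal hemispheres at 110 cells, against 0, 0, 0.667 and 0 RPKM at 8 cells. In vegetal hemispheres it had 5.15, 0, 0 and 10.97 RPKM at 110 cells and was listed at 0 in all 4 libraries at 8 cells. The difference of 4.38 ± 0.82 SE on the log2 scale (limma adjusted p = 0.0102, positive in 4 of 4 numbers) missed the threshold without number 2 or 3 and with a pseudocount of 0.1 RPKM.

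S146.g12031 (208956 to 211006, plus strand, 7 exons, KH.L95.5) had 208, 56.0, 55.7 and 208 RPKM in animal hemispheres at 110 cells, against 0, 0.556, 1.24 and 0 RPKM at 8 cells. In vegetal hemispheres it had 4.70, 0.466, 1.24 and 28.8 RPKM at 110 cells, against 0.981, 0, 0 and 0.271 RPKM at 8 cells. Number 5 was thus high in both hemispheres, and the difference (4.37 ± 0.92 SE, limma adjusted p = 0.0205, positive in 4 of 4 numbers) missed the threshold without number 2, 3 or 4 and with a pseudocount of 0.1 RPKM. For S299.g00917 and S201.g08639, described above, the differences were 3.56 ± 0.81 and 3.89 ± 0.91 SE (limma adjusted p = 0.0334 and 0.0365, positive in 4 of 4 numbers each). The first lost its call when any 1 number was left out, the second without number 2 or 3 or without the block. Both lost it with a pseudocount of 0.1 RPKM and with 1 RPKM asked of 2 libraries at each stage. S201.g08639 ends at 129546, close to S201.g00399 on the same strand. Whether they are pieces of 1 transcription unit was not tested.

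Models that stayed low in animal hemispheres gave the largest negative differences. S104.g10185 (229361 to 231074, minus strand, 4 exons, KH.C6.217, a match shared with another model) had 0.884, 2.14, 1.51 and 1.49 RPKM in animal hemispheres at 110 cells, against 1.39, 1.13, 0 and 0 RPKM at 8 cells, with no call between them (limma adjusted p = 0.253). In vegetal hemispheres it had 258, 126, 97.7 and 205 RPKM at 110 cells, against 0.665, 1.60, 0 and 0.276 RPKM at 8 cells, a difference of the stage changes of -6.00 ± 0.47 SE (limma adjusted p = 2.27e-05, negative in 4 of 4 numbers). S31.g08208 (111328 to 113148, minus strand, 1 exon, KH.C11.313) averaged 1.65 ± 1.64 RPKM in animal hemispheres at 110 cells and 1.27 ± 0.473 RPKM at 8 cells, against 94.5 ± 22.8 and 2.33 ± 0.625 RPKM in vegetal hemispheres (SD, n = 4; difference -4.79 ± 0.47 SE, limma adjusted p = 0.000151). S226.g13127 (10809 to 12538, plus strand, 8 exons, no match named) had 1.004 to 3.30 RPKM in animal hemispheres at 110 cells and 0 to 0.908 RPKM at 8 cells. In vegetal hemispheres it had 26.0 to 76.1 RPKM at 110 cells and was listed at 0 in all 4 libraries at 8 cells (difference -4.45 ± 0.45 SE, limma adjusted p = 0.000154).

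Among models that fell in animal hemispheres, 3 named ones had a more negative change there than in vegetal hemispheres. S21.g03762 (403897 to 406519, plus strand, 7 exons, KH.C14.539) fell to 31.7, 18.3, 37.0 and 28.2 RPKM in animal hemispheres at 110 cells, against 59.8, 55.4, 67.5 and 72.9 RPKM at 8 cells. In vegetal hemispheres it had 68.4, 57.6, 56.6 and 82.3 RPKM at 110 cells and 53.9, 58.4, 80.4 and 73.8 RPKM at 8 cells, with overlapping stages. The difference was -1.15 ± 0.22 SE (limma adjusted p = 0.0115, negative in 4 of 4 numbers) and missed the threshold without number 2, 3 or 5.

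S48.g09013 (264340 to 271099, plus strand, 8 exons, KH.L38.2, shared with another model) had the same pattern, at 51.2, 41.8, 45.4 and 42.1 RPKM in animal hemispheres at 110 cells, against 97.6, 80.6, 59.4 and 79.9 RPKM at 8 cells. Its vegetal means were 75.2 ± 16.9 RPKM at 110 cells and 62.5 ± 6.93 RPKM at 8 cells (SD, n = 4; difference -1.03 ± 0.19 SE, limma adjusted p = 0.00894), and both this call and that of its fall were lost without number 2 or 3. It overlaps a model on the other strand. S49.g00931 (326357 to 330598, plus strand, 5 exons, no match named), which also overlaps one, had 2.56, 2.07, 2.61 and 2.30 RPKM in animal hemispheres at 110 cells, against 17.8, 3.87, 6.29 and 7.34 RPKM at 8 cells, where number 2 stood above the others. Its difference from the vegetal change was -1.51 ± 0.33 SE (limma adjusted p = 0.0257), a call lost when any 1 number was left out and without the block. Its fall lost its call without number 2 or 5 and with no filter on low values.

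In other models the animal stages gave no call while the vegetal stages did. S443.g06786 (3589 to 5255, minus strand, 3 exons, KH.C2.994) had 102, 176, 132 and 90.0 RPKM in animal hemispheres at 110 cells, against 104, 94.4, 68.7 and 79.1 RPKM at 8 cells, with overlapping stages and no call (limma adjusted p = 0.122). It fell to 69.8 ± 11.4 RPKM in vegetal hemispheres at 110 cells, against 112 ± 9.03 RPKM at 8 cells (SD, n = 4; difference 1.18 ± 0.22 SE, limma adjusted p = 0.0102), and the difference lost its call without number 3, 4 or 5. S249.g08034 (6352 to 8022, plus strand, 2 exons, KH.C12.588, a match shared by 5 models) averaged 64.2 ± 12.8 RPKM in animal hemispheres at 110 cells and 63.7 ± 8.46 RPKM at 8 cells, and 42.1 ± 10.4 and 73.0 ± 5.18 RPKM in vegetal hemispheres (SD, n = 4). Its difference of 0.81 ± 0.20 SE (limma adjusted p = 0.0455) missed the threshold under 9 of the alternatives, with an adjusted p of 0.0289 to 0.246 over all of them.

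Against whole embryos, which contain animal cells, the animal stage change differed in few models. It was more positive in 8 (0.071%) and more negative in 26 (0.231%), and 1216 models had an unadjusted p under 0.05. This comparison uses the same animal libraries as that against vegetal hemispheres. Without the number as a block 2 and 13 models were called, and leaving out 1 number left 1, 0, 0 and 0 positive models for numbers 2, 3, 4 and 5 and 4, 6, 3 and 1 negative ones. Of the 26, 25 were called higher at 110 cells in whole embryos and 23 had no call in animal hemispheres.

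S17.g01902 (584035 to 585262, minus strand, 2 exons, KH.C2.644, a match shared by 7 models) gave the largest positive difference. It had 44.8, 39.3, 18.9 and 34.1 RPKM in animal hemispheres at 110 cells, against 0 in all 4 libraries at 8 cells, at least 78.2-fold higher against a mean floor of 3 reads per library, or 0.439 RPKM. Whole embryos had 12.1, 5.90, 3.64 and 2.67 RPKM at 110 cells, against 0, 0.332, 0 and 0 RPKM at 8 cells (difference 2.53 ± 0.43 SE, limma adjusted p = 0.023). S3.g04174 (754463 to 764708, plus strand, 13 exons, KH.L8.1, overlapping a model on the other strand) had 35.8, 26.8, 20.4 and 49.1 RPKM in animal hemispheres at 110 cells, against 0.708, 0.822, 1.35 and 1.69 RPKM at 8 cells. In whole embryos it averaged 8.97 ± 2.74 RPKM at 110 cells and 1.78 ± 0.674 RPKM at 8 cells (SD, n = 4; difference 2.12 ± 0.38 SE, limma adjusted p = 0.0329).

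S445.g12734 (44311 to 48831, plus strand, 11 exons, KH.C1.1016, shared by 3 models) rose 18.1-fold in animal hemispheres, with 138, 89.7, 72.1 and 168 RPKM at 110 cells, against 6.14, 4.85, 7.89 and 6.93 RPKM at 8 cells. Its whole-embryo means were 52.1 ± 14.6 RPKM at 110 cells and 9.08 ± 0.741 RPKM at 8 cells (SD, n = 4; difference 1.56 ± 0.28 SE, limma adjusted p = 0.0329). S146.g05457 (23408 to 24065, plus strand, 3 exons, no match named) averaged 119 ± 8.34 RPKM in animal hemispheres at 110 cells and 85.0 ± 11.8 RPKM at 8 cells, and 86.4 ± 10.2 and 99.7 ± 13.7 RPKM in whole embryos (SD, n = 4; difference 0.69 ± 0.12 SE, limma adjusted p = 0.0302). Its vegetal mean at 110 cells was 109 ± 19.9 RPKM, and whole embryos then lay below both hemispheres in every number. Its animal rise (log2 0.49 ± 0.12 SE, limma adjusted p = 0.0369) missed the threshold without number 2, 3 or 5 and with no filter on low values. All 4 of these differences were positive in 4 of 4 numbers, as the choice of models required, and lost their call when any 1 number was left out. They also lost it without the block and with a filter of 5 RPKM, and all but S146.g05457 with a pseudocount of 0.1 RPKM. The call of S146.g05457 was lost with quantile normalization too.

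Among models at 50 RPKM or more at 8 cells, the difference from whole embryos was positive for S480.g14149 (1.52 ± 0.23 SE, limma adjusted p = 0.011), whose animal values are given above. It had 48.5 ± 14.7 RPKM in whole embryos at 110 cells, against 442 ± 16.3 RPKM at 8 cells (SD, n = 4). Its log2 stage change was -3.21 ± 0.18 SE in whole embryos, -1.69 ± 0.15 SE in animal and -1.52 ± 0.21 SE in vegetal hemispheres. Both hemispheres thus fell less than whole embryos. The call of the difference was lost when any 1 number was left out and without the block. S105.g14933 (97942 to 98465, plus strand, 2 exons, no match named, overlapping a model on the other strand) had 98.0, 72.1, 84.9 and 98.0 RPKM in animal hemispheres at 110 cells, against 125, 80.8, 80.4 and 98.7 RPKM at 8 cells, with overlapping stages. Its vegetal mean at 110 cells was 57.6 ± 10.1 RPKM, and whole embryos then lay below both hemispheres in every number. In whole embryos it fell to 42.1 ± 4.88 RPKM at 110 cells, against 102 ± 4.23 RPKM at 8 cells (SD, n = 4; difference 1.16 ± 0.17 SE, limma adjusted p = 0.01), a call lost without number 3, 4 or 5.

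On the negative side stood S244.g04568 (117110 to 120098, plus strand, 8 exons, KH.C11.21). It fell to 111, 172, 205 and 189.7 RPKM in animal hemispheres at 110 cells, against 202, 272, 321 and 252 RPKM at 8 cells, lower in every number though the stages overlapped. Its vegetal mean at 110 cells was 210 ± 74.7 RPKM, and whole embryos then lay above both hemispheres in every number. Whole embryos averaged 269 ± 78.7 RPKM at 110 cells and 244 ± 46.4 RPKM at 8 cells (SD, n = 4; difference -0.75 ± 0.13 SE, limma adjusted p = 0.0298). That call was lost when any 1 number was left out, without the block and with a filter of 5 RPKM. The call of the animal fall (log2 -0.64 ± 0.12 SE, limma adjusted p = 0.0103) was lost without number 2 or 3 and without the block. In S105.g14933, S146.g05457, S244.g04568 and S480.g14149 the difference is thus not particular to animal hemispheres, and what set it was not tested. S12.g10811 (452174 to 462989, minus strand, 6 exons, KH.C8.247) stayed at 1.14 to 1.82 RPKM in animal hemispheres at 110 cells and 0.501 to 2.44 RPKM at 8 cells, while whole embryos averaged 29.1 ± 4.78 and 1.28 ± 1.14 RPKM (difference -3.53 ± 0.42 SE, limma adjusted p = 0.00292, n = 4), a call lost without number 2, 4 or 5. S104.g10185 and S31.g08208 were again the largest, with differences from whole embryos of -4.78 ± 0.46 and -4.61 ± 0.47 SE (limma adjusted p = 0.00109 each). The call of S31.g08208 was lost without number 5, and that of S104.g10185 with a pseudocount of 0.1 RPKM.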

How the data were processed

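Total RNA was extracted with Trizol and made into TruSeq libraries that do not keep strand, per the labels' protocols. Reads were aligned with HISAT2, per the submitters' processing notes. Not given in the sources used here are the build, the read counter and how multiply matching reads were handled. RPKM values were deposited by the authors for 16078 gene models and an annotation, in which 1 of these models is missing.

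RPKM values are not counts. Between 58.5% and 66.3% of low values in animal libraries lay within 0.1 read of a whole number, so no count model was fitted. Values were analysed as log2(RPKM + 1) with limma 3.58.1 in R 4.3.3 (eBayes with trend, two-sided, Benjamini-Hochberg over 11268 models, threshold 0.05), a scale that understates changes of low models. The fitting script was tested on simulated data.

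The titles give both stages the same numbers, and the comparison is defined by them. Deviations from the group means correlated at 0.508, 0.425, 0.279 and 0.122 between animal stages for numbers 2, 3, 4 and 5, all over 0.1, so the number was a block. In whole embryos number 5 gave 0.0741, so the counts without the block stand beside that comparison.

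Named models are up to 2 per direction with the largest log2 change, within each comparison, among all models, those at 50 RPKM or more at 8 cells, those with at least 3 exons and no overlap on the other strand, and those differing between regions. They had an adjusted p under 0.05, at least 5 RPKM on average in the higher group, and no overlap of groups or 4 differences of 1 sign. The 5 most abundant models of each stage and those with a readable name were added. Members and lists were chosen with earlier results of these data known. Alternatives changed the pseudocount, filter, scaling, block and libraries used.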

Additional observations from a re-analysis of the deposited data

Results flagged for a closer look

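The 116 groups of 4 libraries looked at were of named models, read shares and depth. Where the other 3 libraries of a group are at 0, any value above 0 is picked out, so a chance rate does not apply. Of the 116, 6 had 1 library apart from the other 3, where chance gives about 1 in 20 without such ties. Animal hemispheres at 8 cells held 2 of them, S55.g11366 with 0.647 RPKM in number 3 and S201.g00399 with 0.667 RPKM in number 4, the other 3 libraries being at 0 in each. In vegetal hemispheres at 110 cells S146.g12031 was high in number 5, at 28.8 RPKM, and S443.g06786 was low in number 5, at 52.9 RPKM. In whole embryos at 8 cells S104.g10185 had 0.753 RPKM in number 5 and S17.g01902 had 0.332 RPKM in number 3, with the other 3 libraries at 0.

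The stage change of animal hemispheres differed from that of vegetal hemispheres, by the limma test of the difference, in 12 named models. On the log2(RPKM + 1) scale the animal minus vegetal difference was 4.38 for S201.g00399, 4.37 for S146.g12031, 3.89 for S201.g08639, 3.56 for S299.g00917, 1.18 for S443.g06786 and 0.81 for S249.g08034. It was -6.00 for S104.g10185, -4.79 for S31.g08208, -4.45 for S226.g13127, -1.51 for S49.g00931, -1.15 for S21.g03762 and -1.03 for S48.g09013.

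The animal minus whole difference was picked out by the same test in 10 named models. It was 2.53 for S17.g01902, 2.12 for S3.g04174, 1.56 for S445.g12734, 1.52 for S480.g14149, 1.16 for S105.g14933 and 0.69 for S146.g05457. It was -4.78 for S104.g10185, -4.61 for S31.g08208, -3.53 for S12.g10811 and -0.75 for S244.g04568.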

How the results depend on the processing

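The animal stage counts (748 higher, 767 lower) became 391 higher with 1 RPKM asked of 2 libraries at each stage (36.7% of calls higher, against 49.4%), 499 lower without the replicate block, and 1312 higher and 1409 lower with the block over all 24 libraries. Leaving out 1 number gave 485 to 799 higher and 330 to 932 lower. For animal minus vegetal (177 positive, 102 negative) a pseudocount of 0.1 RPKM gave 44 and 61, the filter at each stage 53 positive, a filter of 5 RPKM 44 negative, no filter 441 negative, and leaving out 1 number 39 to 100 and 46 to 68. The positive share of those calls, 63.4%, was 41.9% with that pseudocount, 40.8% with the filter at each stage, 74.3% at 5 RPKM and 35.9% with no filter. For animal minus whole (8 positive, 26 negative) the pseudocount gave 4 and 13, the filter of 5 RPKM 2 and 2, no filter 50 and 226, no replicate block 2 and 13, and leaving out 1 number 0 to 1 and 1 to 6. Neither quantile normalization nor median-ratio rescaling moved a count by over 1.5 times. Of 52 single-model values past the threshold, 27 stayed past it in every alternative and 25 missed it in at least 1, with 0 reversed. The 25 held every named animal minus whole difference and most of the animal minus vegetal ones. Most animal stage changes past the threshold stayed past it. Which causes apply was not tested; filters change which models are tested, and leaving out a number removes libraries. Models near 1 RPKM rest on few reads.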
